A study of Mus musculus with 20 samples.

Results

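The regions described here are sites where the zinc-finger factor Bcl11b was listed in 2 kinds of T cell and lay together with Foxp3, but were not listed for Bcl11b in Treg cells devoid of Foxp3. They number 651 of the 22081 distinct regions of the series and are called lost regions below. They were selected on the deposited lists themselves: each is common to Bcl11b in wild-type (WT) Treg and Tn cells, common to Bcl11b and Foxp3 in WT Treg cells, common to Foxp3 in WT and Bcl11b-deficient Treg cells, and specific to WT Treg cells against KIKO cells. Their presence or absence in these lists is therefore a description with no test. Every listed region has a position and no score or read count, so the read depth behind it is unknown.

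All cells came from C57BL/6 mice and were sorted as CD4+ cells from draining lymph nodes and spleen. WT Treg and Tn cells carried Foxp3-IRES-YFP-Cre and were both sorted as YFP+, and the labels do not expand Tn. Bcl11b-KO Treg cells were also sorted as YFP+ and carried Bcl11b f/f with Foxp3-IRES-YFP-Cre, so Bcl11b was deleted by a Cre expressed from the Foxp3 locus, an allele that WT controls carried as well. KIKO cells, the Treg cells devoid of Foxp3, carried the genotype Foxp3-GFPKO and were sorted as GFP+. Ages are not given in the labels. Bcl11b was precipitated in 3 libraries from WT Treg, 3 from Tn and 2 from KIKO cells, and Foxp3 in 2 libraries each from WT and Bcl11b-KO Treg cells, beside 8 input libraries. The lists are per comparison, so nothing could be compared between replicates, and the labels do not say whether replicates came from separate animals. Expression is not in these lists, so the identity of the sorted cells against marker genes was not tested.

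Bcl11b is needed to set up and keep the T lineage and works largely as a repressor together with chromatin complexes such as NuRD. Foxp3 is the forkhead factor that defines Treg cells. It binds largely at regulatory sites that are already open in precursor T cells, next to factors such as the Ets and Runx families, which also occupy many T cell promoters. A promoter is the stretch at a gene's start where transcription begins.

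The rule narrowed the lists step by step. Of 4497 Bcl11b regions common to Treg and Tn cells, 2559 were common with Foxp3 and 1545 of these were also common to Foxp3 in WT and Bcl11b-KO cells. Those 1545 split into the 651 lost regions, 734 that were common with KIKO cells and are called kept regions below, and 160 in no list of the KIKO comparison. For scale, 62.4% of all WT Treg Bcl11b regions in the KIKO comparison were listed as specific to WT. That comparison listed 3523 regions as specific to WT and only 67 as specific to KIKO cells. KIKO cells had 1 input library and WT Treg cells 3, and the cause of the imbalance was not tested. Listed as common were 69% of WT Treg Bcl11b regions against Tn, 65.5% of WT Treg Bcl11b regions against Foxp3, and 68.7% of WT Foxp3 regions against Bcl11b-KO. These shares belong to the rule, and nothing is read from them. Just outside the rule stood 256 regions that met its Bcl11b conditions but had Foxp3 listed as specific to WT, 21 with Foxp3 specific to Bcl11b-KO, and 227 absent from that comparison. Also set beside the lost regions are 113 Treg-only regions, which met the same rule except that they were Treg-specific against Tn. Of the lost regions, 7 stood in 2 classes of 1 comparison, 2 of them in both KIKO lists.

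The lost regions included promoters of T cell receptor genes, NF-kB pathway genes and broadly used genes. Sequences follow for genes of those kinds, because they show what lies under a lost region. Each line is the part of the gene's RefSeq promoter window (250 bases before to 50 after the start, GRCm38.p6, the assembly with mm10 coordinates) that lies inside the region, read 5′ to 3′ on the gene's strand. Capitals mark the letters of an Ets motif (CCGGAA), a Runx motif (TGTGGT) or a cyclic AMP response element (CRE, TGACGTCA) on either strand. Positions of motifs count from the first base of the start whose window is printed as 0, so -54 is 54 bases before it.
Cd3g, chr9:44980382-44980659, minus strand: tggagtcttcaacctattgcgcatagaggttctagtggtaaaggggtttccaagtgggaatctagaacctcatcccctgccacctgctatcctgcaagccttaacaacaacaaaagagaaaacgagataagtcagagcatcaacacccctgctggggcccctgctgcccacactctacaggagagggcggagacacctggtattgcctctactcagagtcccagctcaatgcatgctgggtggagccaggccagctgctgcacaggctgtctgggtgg
Lck, chr4:129558382-129558622, minus strand: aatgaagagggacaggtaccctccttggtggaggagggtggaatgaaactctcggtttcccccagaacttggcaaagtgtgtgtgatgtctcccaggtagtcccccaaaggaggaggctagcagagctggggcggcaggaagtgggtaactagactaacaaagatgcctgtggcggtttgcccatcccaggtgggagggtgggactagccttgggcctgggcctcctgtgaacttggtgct
Lat, chr7:126369519-126369741, minus strand: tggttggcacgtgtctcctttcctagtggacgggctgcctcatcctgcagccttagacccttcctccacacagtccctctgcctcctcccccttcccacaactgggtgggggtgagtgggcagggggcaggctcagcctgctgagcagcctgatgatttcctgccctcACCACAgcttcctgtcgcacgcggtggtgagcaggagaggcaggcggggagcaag
Nfkbia, chr12:55492598-55492863, minus strand: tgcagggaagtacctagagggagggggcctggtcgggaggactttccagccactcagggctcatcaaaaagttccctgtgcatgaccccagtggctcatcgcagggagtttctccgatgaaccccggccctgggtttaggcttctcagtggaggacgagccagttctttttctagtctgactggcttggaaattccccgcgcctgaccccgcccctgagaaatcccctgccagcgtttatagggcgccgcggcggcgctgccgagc
Birc2, chr9:7836804-7837056, minus strand: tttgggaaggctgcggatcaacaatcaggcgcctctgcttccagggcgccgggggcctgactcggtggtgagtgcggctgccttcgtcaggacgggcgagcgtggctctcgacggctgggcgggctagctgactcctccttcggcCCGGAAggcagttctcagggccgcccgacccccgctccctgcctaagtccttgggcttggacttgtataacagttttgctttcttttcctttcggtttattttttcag
Dusp1, chr17:26508423-26508722, minus strand: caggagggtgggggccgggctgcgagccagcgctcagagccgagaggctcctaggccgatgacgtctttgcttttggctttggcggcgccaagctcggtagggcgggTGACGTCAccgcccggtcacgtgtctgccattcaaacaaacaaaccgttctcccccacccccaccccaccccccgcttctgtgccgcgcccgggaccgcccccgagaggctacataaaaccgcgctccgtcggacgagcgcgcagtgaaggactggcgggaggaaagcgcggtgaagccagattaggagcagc
Rps7, chr12:28635904-28636125, minus strand: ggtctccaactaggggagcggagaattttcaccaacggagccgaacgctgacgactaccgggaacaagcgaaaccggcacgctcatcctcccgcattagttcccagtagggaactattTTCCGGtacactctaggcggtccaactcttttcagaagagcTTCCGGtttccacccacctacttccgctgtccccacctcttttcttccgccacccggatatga
Supt4a, chr11:87737322-87737600, plus strand: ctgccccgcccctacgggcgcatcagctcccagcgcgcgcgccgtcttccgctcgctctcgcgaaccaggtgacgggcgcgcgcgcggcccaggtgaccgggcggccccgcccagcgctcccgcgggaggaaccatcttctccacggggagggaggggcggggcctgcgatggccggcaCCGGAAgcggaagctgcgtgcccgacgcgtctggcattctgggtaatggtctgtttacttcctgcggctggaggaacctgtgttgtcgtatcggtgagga
For comparison, the last line is the kept region at the start of Nfkbie.
Nfkbie, chr17:45555450-45555749, plus strand: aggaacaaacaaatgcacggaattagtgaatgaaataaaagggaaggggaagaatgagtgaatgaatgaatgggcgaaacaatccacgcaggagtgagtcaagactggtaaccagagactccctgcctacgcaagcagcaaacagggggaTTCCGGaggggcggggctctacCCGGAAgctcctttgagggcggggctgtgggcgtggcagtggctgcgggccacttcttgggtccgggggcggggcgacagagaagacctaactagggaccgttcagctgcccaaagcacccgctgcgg

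Among these 8 lost promoters, the Ets letters stood at -105 in Birc2, at -54 and -13 in Rps7 and at -50 in Supt4a. The Runx letters stood at -5 in Lat, and the CRE letters at -143 in Dusp1. Birc2 has 2 listed starts and the printed window belongs to the downstream one, at position 7836806, so the same letters lie inside the gene as read from the upstream start at 7837057. Cd3g, Lck and Nfkbia held none of the 3 motifs in the part shown. The kept promoter of Nfkbie held Ets letters at -100 and -78.

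The first question was where lost regions lie relative to genes. Most lay at gene starts, yet fewer did than among kept regions. Centres of 413 of 651 lost regions (63.4%, Wilson 95% interval 59.7 to 67.1) were within 1 kb of a protein-coding gene start, against 552 of 734 kept regions (75.2%, 72.0 to 78.2). The odds ratio was 0.57 (exact interval 0.45 to 0.73, Fisher's exact test, two-sided, adjusted p = 8.3e-06). The intervals cover counting error only, and the test compares regions of these lists rather than conditions. Treg-only regions lay at starts less often than lost regions, at 56 of 113 (49.6%, 40.5 to 58.6). Here the odds ratio was 1.76 (1.16 to 2.69, exact adjusted p = 0.0085). Among all listed regions the share was 40.4%. Some regions share a gene and thus a position, which the test does not allow for.

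**Figure D1:**
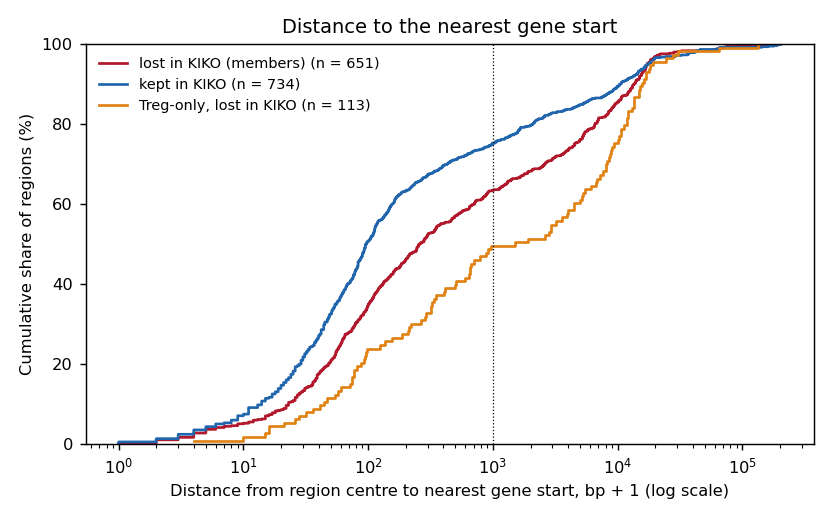
Cumulative share of regions (vertical axis, percent) by the distance from a region's centre to the nearest protein-coding gene start (horizontal axis, bp + 1, log scale), for 651 lost, 734 kept and 113 Treg-only regions, with a dotted line at 1 kb. The lost curve runs between the other 2 at 1 kb, with 63.4% of lost, 75.2% of kept and 49.6% of Treg-only regions to the left of the line.

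Lost and kept regions stood further apart at 200 bp from a start than at 1 kb. Within 200 bp lay 301 lost regions (46.2%) and 464 kept regions (63.2%). Between 200 bp and 1 kb the order turned, with 112 lost (17.2%) and 88 kept regions (12%). Between 1 and 10 kb lay 143 lost (22.0%) and 105 kept regions (14.3%), and beyond 10 kb 95 (14.6%) and 77 (10.5%). The median distance to a start was 259 bp for lost and 95.5 bp for kept regions, with quartiles of 59.5 and 4517 bp for lost and 36 and 983 bp for kept. Of lost regions near a start of known direction, 205 of 348 (58.9%) were centred upstream of it, and of kept regions 269 of 446 (60.3%). Centres inside a protein-coding gene made up 62.4% of lost, 57.6% of kept and 60.4% of all regions.

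Lost regions had another listed region nearby more often than kept regions did. Another listed region lay within 10 kb of 432 lost regions (66.4%, 62.6 to 69.9) and of 418 kept regions (56.9%, 53.3 to 60.5). The odds ratio was 1.49 (1.19 to 1.87, Fisher's exact test, two-sided, adjusted p = 8.0e-04). Split by nearness to starts, the direction stayed the same. Among regions over 1 kb from a start, a smaller set, the shares were 79.0% and 75.8% and the call ended (odds ratio 1.20, 0.74 to 1.95, exact adjusted p = 0.86). Among regions within 1 kb of a start they were 59.1% and 50.7% (odds ratio 1.40, 1.08 to 1.83, exact adjusted p = 0.022). These intervals overlap, and whether the result changes with nearness to starts was not tested. For Treg-only regions the share was 68.1%, and its odds ratio against lost regions had an interval from 0.58 to 1.44 (exact adjusted p = 0.75). Over all listed regions it was 64.2%.

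**Figure D2:**
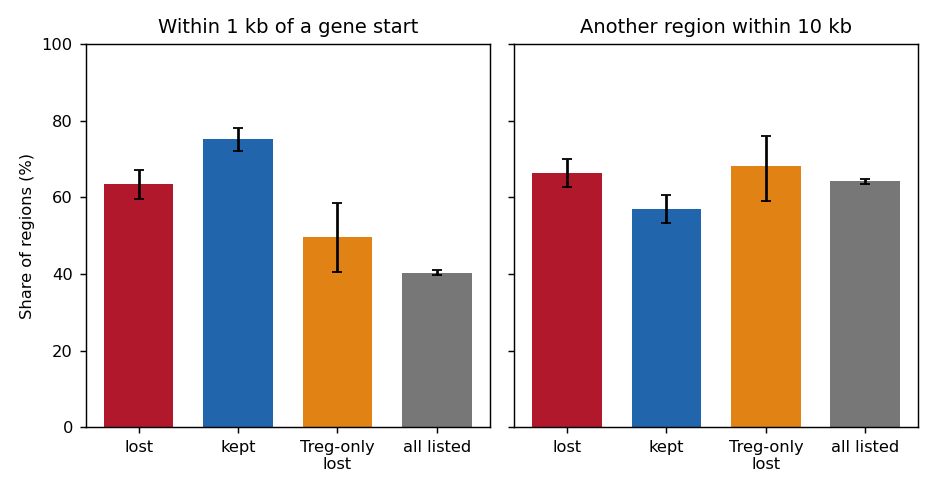
Share of regions (vertical axis, percent) centred within 1 kb of a gene start (left) and with another listed region within 10 kb (right), for lost, kept, Treg-only and all listed regions; bars are shares and error bars Wilson 95% intervals. Lost regions stand below kept regions on the left, at 63.4% and 75.2%, and above them on the right, at 66.4% and 56.9%.

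By kind, a region listed for Foxp3 without Bcl11b lay within 10 kb of 242 lost regions (37.2%), 238 kept regions (32.4%) and 38.9% of all listed regions. A further region of both factors lay near 182 lost (28.0%) and 161 kept regions (21.9%) and 22.8% of all, and Bcl11b without Foxp3 near 51 (7.83%), 62 (8.45%) and 8.94% of all. Foxp3 sites common to WT and Bcl11b-KO cells lay near 298 lost (45.8%) and 264 kept regions (36.0%), against 42.5% of all. Foxp3 sites specific to Bcl11b-KO lay near 83 (12.7%) and 65 (8.86%), against 11.7% of all, and those specific to WT near 133 (20.4%) and 144 (19.6%), against 22.5%. Another lost region was within 10 kb of 30 lost regions (4.61%), and a lost region lay that near 3.41% of kept and 3.5% of all regions. A kept region lay that near 27 lost regions (4.15%), against 4.22% of kept and 3.19% of all regions. These kinds of neighbour are given as counts without a test.

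Lost and kept regions had similar widths. The median width was 335 bp for lost regions (quartiles 295 and 387, range 220 to 744) and 341 bp for kept regions (302 and 393). No lost, kept or Treg-only region had 198 bp, the most frequent width in the list of Treg Bcl11b regions specific against KIKO. The most frequent width of the list specific to Bcl11b-KO Foxp3, 276 bp, was shared by 47 of 651 lost and 42 of 734 kept regions. Wider than this were 85.7% of lost, 88.3% of kept, 76.1% of Treg-only and 28.4% of all regions. Width depends on the lists that chose the regions, so it is not tested. Lost regions were spread over chromosomes 1 to 19 and X, with the most on chromosome 11, at 68 (10.4%, against 10.5% of kept and 8.32% of all regions). On X lay 5 (0.768%, against 0.272% of kept and 1.83% of all regions).

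The motifs of promoter windows were then counted. Lost regions overlapped the windows of 363 genes, through 310 regions, 53 of which touched the windows of 2 genes. Ets letters were in 178 of the 363 windows (49.0%, 43.9 to 54.2), in 53.8% of 520 windows over kept regions (49.5 to 58.1), in 37.0% of 6253 windows over any listed region and in 15.2% of the 27025 windows of all genes, 1 per gene. The matches gathered inside the regions: in windows over lost regions 247 Ets matches (92.2% of them) were inside the region and 21 outside, while the region held 72.0% of the positions. This is a density of 3.20 per kb inside and 0.70 per kb outside. Windows over kept regions had 3.28 per kb inside and 0.62 outside. Position relative to the start was not held equal between inside and outside.

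Runx letters were in 10.2% of windows over lost regions (7.49 to 13.7) and in 16.5% over kept regions (13.6 to 20), against 13.2% over any region and 16.9% of all promoters. Sp/Klf letters (GGGCGG) were in 66.1%, 62.5%, 67.7% and 35.9% in the same order, and had about the same density inside lost regions (4.62 per kb) as outside them (4.83 per kb). CCAAT boxes (CCAAT) were in 33.3%, 28.8%, 39.4% and 37.9%. Letters of a forkhead motif (TGTTTAC), the kind that forkhead factors such as Foxp3 recognise, were in 12 of 363 windows over lost regions (3.31%) and 3.55% of all promoters. The other motifs are given over lost, kept and any listed regions and in all promoters. AP-1 (TGANTCA) had 5.79%, 4.42%, 4.81% and 7.93%, and CRE 3.31%, 3.85%, 4.61% and 1.88%. E-box (CACGTG) had 10.7%, 10.8%, 13.3% and 7.24%, and NRF1 (GCGCATGC) 4.41%, 6.35%, 5.85% and 2.8%. The STAT letters (TTCNNNGAA) had 6.89%, 5%, 6.8% and 8.47%. For motifs other than Ets, the share of matches inside lost regions ran from 61.9% (AP-1) to 84.1% (Runx), with about 72% of positions inside. The median GC content was 63.0% over lost, 61.8% over kept and 61.7% over any listed regions and 52.7% in all promoters. The median number of CG pairs was 24, 23, 23 and 7 in the same order. Base composition thus differs from that of all promoters, and its part in the motif shares was not tested. A match is a run of letters and not a measured site.

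**Figure D3:**
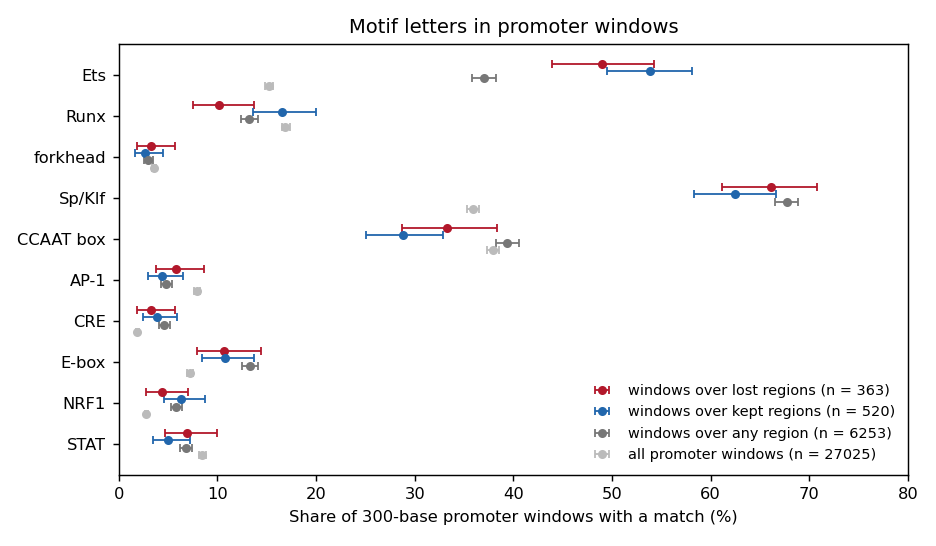
Share of 300-base promoter windows that hold the letters of each motif on either strand (horizontal axis, percent; motifs on the vertical axis), for windows over lost, kept or any listed regions and for all promoters, with Wilson 95% intervals. Ets letters stand at 49.0% and 53.8% over lost and kept regions against 15.2% of all promoters, and forkhead letters at 3.31% and 2.69% against 3.55%.

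Lost regions were thinly spread over genes. The nearest protein-coding gene within 100 kb could be given for 650 of 651, and these fell at 630 genes, of which 611 held 1 lost region, 18 held 2 and 1 held 3. That is 5.72% of the 11007 genes with any listed region, while 6.47% held a kept region and 31 genes held both. Of the 321 genes on 15 lists, 36 held a lost and 24 a kept region, with 2 genes, Btg2 and Ccr9, in both counts. The lists were drawn up with earlier results of these data known, and their counts carry no test. A gene with many listed regions, such as Cd5 with 8 or Btg1 with 7, has more chances to hold a lost one. The counts do not allow for this.

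**Figure D4:**
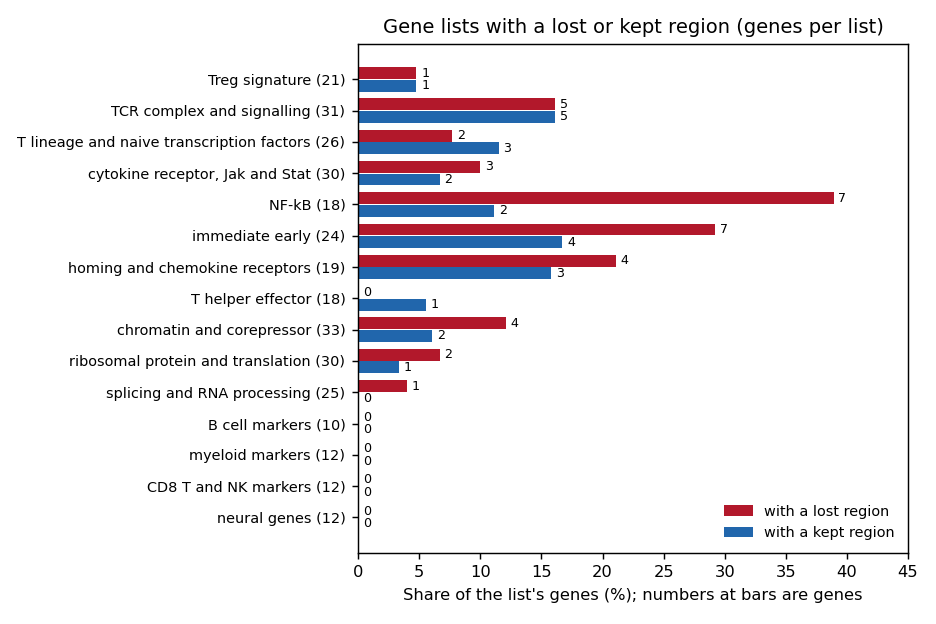
Share of the genes of each list (horizontal axis, percent; number of genes at the bar, size of the list in parentheses) that are nearest to a lost region or a kept region. The NF-kB list has 7 of 18 genes with a lost and 2 with a kept region, and the 4 lists of B cell, myeloid, CD8 T and NK, and neural genes have none. Over all genes with a listed region the shares are 5.72% (lost) and 6.47% (kept), so none in such small lists is near the overall share.

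Of 31 genes of the T cell receptor complex and its signalling, 5 held a lost and 5 others a kept region. Over all genes with a listed region the shares were 5.72% and 6.47%. None held both, as few genes did in all (4.92% of those with a lost region). The lost ones were at Cd3g and Cd3d, chains of the CD3 complex, Lck, the kinase that starts receptor signalling, Lat, the membrane adaptor, and Cd5, an inhibitory co-receptor. The kept ones were at Zap70, a kinase downstream of Lck, at the adaptor gene Lcp2, at Plcg1, at Vav1 and at Malt1. The Cd3g region (chr9:44980368-44980659) was centred 82 bp upstream of the start and was the single listed region of that gene. Cd3d had a single region as well, 478 bp wide at chr9:44986486-44986963, inside the gene and 4938 bp from its start. The Lat region (chr7:126369393-126369741) was centred 1 bp from the start, and that of Lck (chr4:129558382-129558866) 252 bp upstream of the nearer of its 2 starts. The second region of Lck, centred at -11918 bp from the same start, was common to both factors. It stood in no list of the Tn or KIKO comparison, not even as specific to WT Treg cells. At Cd5 the lost region was 1896 bp upstream of the start and was 1 of 8 regions, 5 of them shared by both factors.

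Genes of the NF-kB pathway, which carries signals from the T cell receptor and TNF receptors to Rel factors, held lost regions at 7 of 18 members and kept regions at 2. The shares of all genes with a listed region were 5.72% and 6.47%, and the counts here are small. Nfkbiz, a nuclear member of the inhibitor family, held 2, both inside the gene (chr16:55822071-55822388 and chr16:55838611-55838896). Nfkbia, the classical inhibitor and a target gene of the pathway, held a 520 bp region centred 44 bp inside its start (chr12:55492344-55492863). Birc2 and Birc3, neighbouring genes of ubiquitin ligases that restrain the alternative pathway, held 1 each. That of Birc2 was centred 64 bp inside the upstream of its 2 starts and reached the downstream one, and that of Birc3 was centred 199 bp inside its start. Each of the pair had a second region deeper in the gene that was Treg-specific against Tn and WT-specific against KIKO, that of Birc3 in the 198 bp width. Ikbke, a kinase gene, held its single region 732 bp upstream. Traf1 and Traf2, adaptors of TNF receptors, held 1 each, at 1372 bp upstream and 12548 bp inside. At Traf1 the next region was 94 bp away. The kept genes were Nfkb2, a Rel family precursor, and Nfkbie, another inhibitor.

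**Figure D5:**
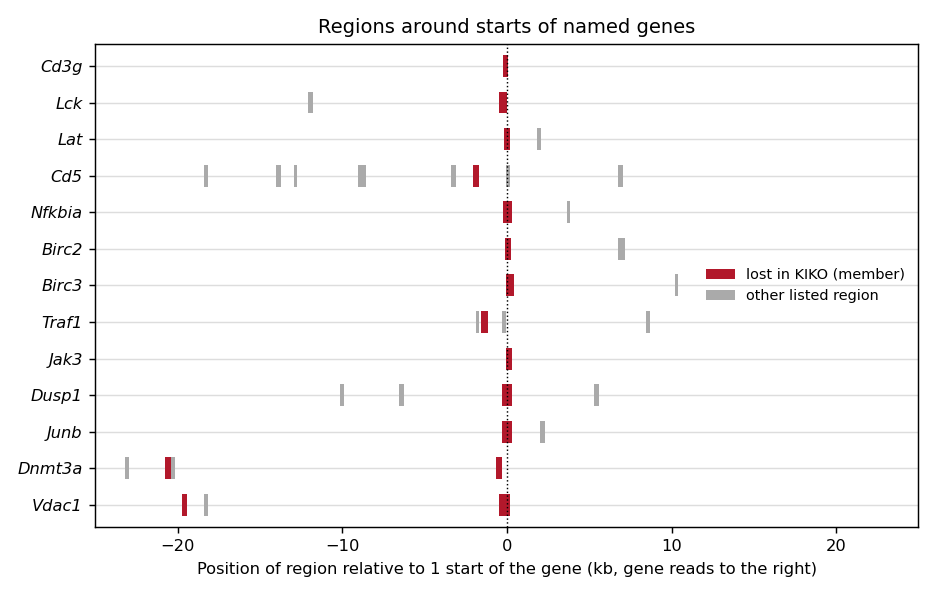
Listed regions around the starts of 13 named genes (horizontal axis, kb from 1 start per gene, the listed start nearest to a lost region, with the gene read to the right; regions are drawn to scale), with lost regions in red and other listed regions in grey. Lost regions lie over the start of Cd3g, Lat, Nfkbia, Birc2, Birc3, Jak3, Dusp1, Junb and Vdac1 and end just before that of Lck. Those of Cd5 and Traf1 lie 1896 and 1372 bp upstream, and Dnmt3a and Vdac1 have a second one 20574 and 19577 bp upstream.

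Immediate early genes, which respond within minutes to stimulation, held lost regions at 7 of 24 members and kept regions at 4. Among all genes with a listed region 5.72% held a lost and 6.47% a kept region. Dusp1, a MAP kinase phosphatase, held a 594 bp region over its start (chr17:26508154-26508747) and Junb, an AP-1 subunit, one of 612 bp (chr8:84978415-84979026). Btg1, an antiproliferative gene, held 572 bp centred 35 bp upstream of its start. Zfp36l2, whose protein promotes mRNA decay, held its region 722 bp from a gene end. Egr1, a zinc-finger factor gene, and Ier2 held theirs 4845 bp and 1259 bp from a gene end. Btg2 held a kept region at its start and a lost one 14113 bp upstream. The other kept genes were Nr4a1, Dusp2 and Dusp5.

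Cytokine signalling genes held lost regions at 3 of 30 members (10%), against 5.72% of all genes with a listed region. Jak3, the kinase of the common gamma chain receptors, had a single region, centred 129 bp inside its start (chr8:71676345-71676679). Stat4, which carries the IL-12 signal, had 1 of 7 regions lost, 346 bp inside the nearer of its 2 starts, and Socs3, a feedback inhibitor, 1 of 6. The kept genes were Il21r and Stat5a. Among homing genes, 4 of 19 held a lost region (21.1%, against the same 5.72%). These were Cxcr5, S1pr1, the receptor for egress from lymph nodes, Itgb7, an integrin chain of gut homing, and Ccr9, a gut homing receptor. Ccr9 held a lost region 12648 bp and a kept one 10267 bp upstream. Kept regions lay at the integrin genes Itga4 and Itgal too.

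Of the 26 T lineage factor genes, 2 held lost regions (7.69%), and of the 21 Treg signature genes 1 (4.76%), near the 5.72% of all genes with a listed region. Tcf7, which encodes TCF-1, held 2 of its 7 regions, 16761 bp inside and 16882 bp upstream, each from the nearer of its 2 starts. Bcl11b itself held 1 of 4, inside the gene at chr12:107998719-107999043. Kept regions in that list lay at Runx1, Fli1 and Klf6. In the Treg signature, Il2ra held 1 lost region among 8, at chr2:11653334-11653671, and Itgae 1 kept region. A Treg-only region lay at 4 of the 21 genes, Foxp3, Ctla4 and Il2ra among them, against 1.02% of all genes with a listed region. Foxp3, Ctla4, Satb1, Gata3 and Ikzf1 held no lost region and had between 1 and 15 listed regions each. Lost regions were 651 of all 22081, so none among so few regions is near the overall share.

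Chromatin genes held lost regions at 4 of 33 members (12.1%, against 5.72% of all genes with a listed region), and kept regions at Kdm6b and Arid1a. Dnmt3a, a DNA methyltransferase gene, held 2, at 468 bp and 20574 bp upstream of a start. Rbbp4, a histone-binding subunit shared by NuRD and other complexes, held its single region 35 bp inside its start. Mbd2, a reader of methylated DNA found in NuRD, and Arid1b, a subunit of a chromatin remodeller, held 1 each. Of 30 ribosomal protein and translation genes, 2 held a lost region (6.67%), the ribosomal protein gene Rps7 and the helicase gene Eif4a1, and Rpl11 held a kept one. That of Rps7 was centred 4 bp before the start (chr12:28635790-28636125). Of 25 splicing and RNA processing genes, 1 held a lost region (4%), the splicing factor gene Srsf2, and none a kept one. Both shares are near the 5.72% of all genes with a listed region. T helper effector genes held none in 18 members, with 1 kept region at Bcl6. The lists of B cell, myeloid, CD8 T and NK, and neural markers held neither a lost nor a kept region. Of their genes, 5 of 10, 3 of 12, 8 of 12 and 6 of 12 had a listed region of some kind. Over all genes with a listed region 5.72% held a lost and 6.47% a kept region, so none among so few genes is near the overall share.

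Tagln2, an actin-binding protein gene, held the most lost regions, 3 of its 4, at 1670 bp inside the start and at 5765 and 6758 bp beyond the gene. The pair outside the gene was nearer to the start of Cfap45. Gtf2a1, a general transcription factor gene, held 2 lost regions, centred 78 and 686 bp inside the upstream one of its 2 listed starts, and Pde8a, a phosphodiesterase gene, held 2 within 834 bp of its start. Irf2, an interferon regulatory factor gene, held 2 of 6. Dyrk1a, a kinase gene, had 2 regions in all, both lost. Amz2 held 2 lost and 1 kept region among 9, and Supt4a, which encodes an elongation factor, 2 lost and 1 Treg-only region. Vdac1, a mitochondrial channel gene, held 2 lost regions. Of these, the 633 bp region at its start (chr11:52360377-52361009) stood in both WT-specific and common Foxp3 lists of the Bcl11b-KO comparison. The widest lost regions were at Cct8l1 (744 bp), Rhog (655 bp), Fcho1 (650 bp), Ogfod2 (635 bp) and this one at Vdac1.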

How the data were processed

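The ChIP-seq data were deposited as 12 lists of regions. Per the submitters' processing notes the build is mm10 and the tools include HOMER 4.10.1, HISAT2 2.1.0, deepTools, SAMtools 1.3, Trim Galore 0.4.2 with cutadapt 1.12, and FastQC, without roles. How peaks were called, whether replicates were pooled and what made a region common or specific is not given in the sources used here. For 1 of the WT Treg Bcl11b libraries the label names no list. Each deposited list holds chromosome, start and end, with no header and no unit of signal; 127 repeated rows were dropped. Members were matched by identical positions. Distances run from region centres to protein-coding starts in the RefSeq promoter table (17492 genes) or to either gene end where it has no row (4408 genes), so signs are missing there. Shares were compared with Fisher's exact test, adjusted by Benjamini-Hochberg over 4 tests, which share the lost regions. Steps were tested on simulated data in Python 3.11.15 with scipy 1.17.1. Promoter sequences are from RefSeq, GRCm38.p6; for a gene with several windows the one with the largest overlap was used. Members and lists were chosen with earlier results of these data known. A distance runs to the nearest of a gene's listed starts, so regions of 1 gene can refer to different starts. Named are Tagln2, the gene with 3 lost regions, and 9 of the 18 tied at 2, taken by the distance of their nearest lost region to a start with predicted genes passed over, the genes of the 5 widest, up to 5 per list, and 7 set genes. Traf1, Traf2, Junb, Zfp36l2, the list genes with kept regions and the promoters printed were chosen after their values were seen.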

Additional observations from a re-analysis of the deposited data

How the results depend on the processing

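For the start share, 9 of 9 alternatives kept direction and side of the threshold against kept regions, and 9 of 9 against Treg-only regions. The neighbour share kept both in 6 of 7 alternatives against kept regions and in 4 of 7 against Treg-only regions. Against kept regions, the start share kept both under all 9 alternatives tried (500 bp, 2.5 kb, either gene end, every annotated gene, autosomes, regions wider than 276 bp, no region in 2 classes and, added after seeing the data, 200 bp and genes of known start), with odds ratios from 0.50 to 0.72; against Treg-only regions they ran from 1.66 to 2.28. The neighbour share against kept regions lost its call among regions over 1 kb from a start (odds ratio 1.20), a subset of fewer regions chosen after seeing the data. Against Treg-only regions, where no difference was called, the odds ratio turned to 1.03 at 2 kb, to 1.01 within 1 kb of a start and to 1.11 beyond it; the cause was not tested. Matching centres within 100 bp gave 651 members and leaving out regions in 2 classes 644. Assignment within 20 kb gave 626 genes in place of 630. No replicate could be left out. No paired analysis was possible because the lists carry no replicate numbers. Depth is unknown, so a region missing from a list is not shown to be unbound.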

Other observations

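MicroRNA hairpins within 1 kb of a lost region were 5 for 651 regions, of which 1 overlapped it. For the 734 kept regions 4 hairpins lay that near, of which 2 overlapped. No share over all listed regions is given, so nothing is read from these counts. The overlapping lost one was that of let-7i, a member of the let-7 family that dampens growth genes in many animals. The lost region chr10:122985396-122985671 covered 32 bases of the hairpin at chr10:122985640-122985724 on the minus strand, with the 3p mature sequence inside the region and the 5p sequence outside it. The mature sequences from RefSeq (GRCm38.p6), with the seed in capitals, are given because they name the gene product beside the region. This gene was chosen after its position was seen.
mmu-let-7i-5p: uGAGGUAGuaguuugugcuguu
mmu-let-7i-3p: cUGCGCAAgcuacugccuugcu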
